A study of Mus musculus with 13 samples.

Results

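The Wnt pathway genes described here are 46 mouse genes, made up of 19 Wnt ligands, 10 Frizzled receptors, 2 co-receptors, 4 genes of beta-catenin and its destruction complex, 3 nuclear factors, 5 secreted inhibitors and 3 genes of the R-spondin branch. They were chosen by name, and each was found exactly 1 time among the 21951 protein-coding genes of the mouse annotation. For each gene, the listed peaks of trimethylated histone H3 lysine 4 (H3K4me3) and lysine 27 (H3K27me3) within 2 kb of any transcription start site (TSS) were read at 3 stages of the oligodendrocyte lineage. OLIG2 peaks were read in the gene body and the 5 kb before it in OPCs and NFOs. No expression values were used, so the text describes marks and binding and not transcript levels.

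Wnt ligands are secreted, lipid-modified proteins that bind a Frizzled receptor together with LRP5 or LRP6. Binding stops a complex of AXIN, APC and kinases from destroying beta-catenin, which then enters the nucleus and acts with the TCF and LEF factors. In the oligodendrocyte lineage this branch of the pathway is known for holding precursors back from differentiation. H3K4me3 lies at promoters that are active or ready for use, H3K27me3 is laid down by the Polycomb repressive complex at silent developmental genes, and promoters that carry both are called bivalent.

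The 3 stages were neural stem cells (NSCs), oligodendrocyte precursor cells (OPCs) and newly formed oligodendrocytes (NFOs), each with 1 chromatin immunoprecipitation sequencing (ChIP-Seq) library for H3K4me3, 1 for H3K27me3 and 1 input DNA library, and OPCs and NFOs also had 1 library each for OLIG2, the lineage's basic helix-loop-helix transcription factor. The labels name no genetic change and no treatment for any group. NSCs are labelled C57BL/6, while their protocol describes a purchased culture from the embryonic (E14.5) cortex of CD-1 mice. OPCs and NFOs came from the brains of C57BL/6 mice at postnatal day 7 and were selected by immunopanning on antibodies to PDGFRA and to galactocerebroside. NSCs were thus cultured and embryonic, and OPCs and NFOs were freshly isolated and postnatal. The peak names also give single reads for the NSC libraries and paired reads for the others, so stage, strain, culture and read layout cannot be told apart. With 1 library per condition there is no spread between replicates, no test was made, and the main counts over the 46 genes are given beside the share of all coding genes, called the background. Counts by role have no such background.

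The antibody labels were at odds with the sample titles: the libraries titled H3K4me3 carry the tag of the H3K27me3 antibody, and the reverse. Titles were followed, because the peak names inside the lists match them and because the lists titled H3K4me3 had peaks at 10, 10 and 9 of 10 housekeeping genes in NSCs, OPCs and NFOs, against 0, 1 and 0 for the lists titled H3K27me3. Of 10 genes taken as silent in cortex, 9, 10 and 10 had a peak in the H3K27me3 lists and 3, 2 and 2 in the H3K4me3 lists. The NFO lists stood apart. Their H3K4me3 peaks had a median width of 255 bp, against 987 bp in OPCs and 553 bp in NSCs, and only 1 of 10 oligodendrocyte marker genes had a listed H3K4me3 peak in NFOs (4 in OPCs and 4 in NSCs). The defining myelin genes Mbp, Mog and Mag were among those without one in NFOs. OPC markers had an H3K4me3 peak in 7 of 8 cases in NFOs, NSC markers in 4 of 7, neuronal markers in 4 of 6, astrocyte markers in 1 of 5, microglial markers in 0 of 5 and endothelial markers in 1 of 4. In OPCs 5 of the 6 neuronal markers had one. The part of other cells in the results was not tested. A lack of H3K4me3 in NFOs is therefore given below as a lack of a listed peak only. The lists hold no read totals, so the depth behind each peak is unknown.

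Each promoter was put into 1 of 5 states. It was K4 only or K27 only if peaks of just that mark lay near a TSS. It was bivalent if the peaks of the 2 marks overlapped by at least 1 bp and no peak stood alone, mixed if peaks of more than 1 of these kinds were present, and unmarked if no peak was listed. The 2 marks were read in separate libraries of many cells, so overlapping peaks do not show that both marks lie in the same cell.

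Wnt promoters carried H3K27me3 more often than coding genes as a whole at each stage, and this was so for more of them in OPCs than in NSCs. H3K27me3 was listed at 15 of 46 Wnt genes in NSCs, where 15.1% of all coding genes had it, at 27 in OPCs (background 16.4%) and at 22 in NFOs (background 9.56%). These counts are 32.6%, 58.7% and 47.8% of the Wnt genes. H3K4me3 was listed at 43 Wnt genes in NSCs (background 64.3%), 38 in OPCs (background 60.7%) and 27 in NFOs (background 43.6%). With H3K27me3 peaks of at least 1 kb only, the counts of Wnt genes were 7, 14 and 13 (background 5.84%, 5.4% and 4.36%), and with a fold enrichment above 5 they were 7, 13 and 8 (background 2.43%, 7.28% and 2.6%). With H3K4me3 peaks of at least 500 bp only, 43, 33 and 11 Wnt genes had H3K4me3 (background 61.2%, 56% and 23.8%). The fall of H3K4me3 across the stages was thus shared with coding genes in general. The H3K27me3 share of all coding genes moved little from NSCs to OPCs with all listed peaks and with those of at least 1 kb. Above a fold enrichment of 5 that share rose from 2.43% to 7.28%, while the Wnt count rose from 7 to 13.

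In NSCs, 28 Wnt genes were K4 only (background 52.1%), 9 bivalent (background 5.29%), 6 mixed (background 7.08%), 1 K27 only (background 3.07%) and 2 unmarked (background 32.4%). OPCs had 17 K4 only genes (background 49.5%), 6 bivalent (background 2.99%), 15 mixed (background 8.51%), 6 K27 only (background 4.92%) and 2 unmarked (background 34.1%). In NFOs the numbers were 13 K4 only (background 38.9%), 2 bivalent (background 1.56%), 12 mixed (background 3.47%), 8 K27 only (background 4.53%) and 11 unmarked (background 51.6%). Mixed promoters, in which a stretch with both marks or with 1 mark lies beside a stretch of another kind, were the commonest H3K27me3-bearing state of Wnt genes in OPCs and NFOs.

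**Figure D1:**
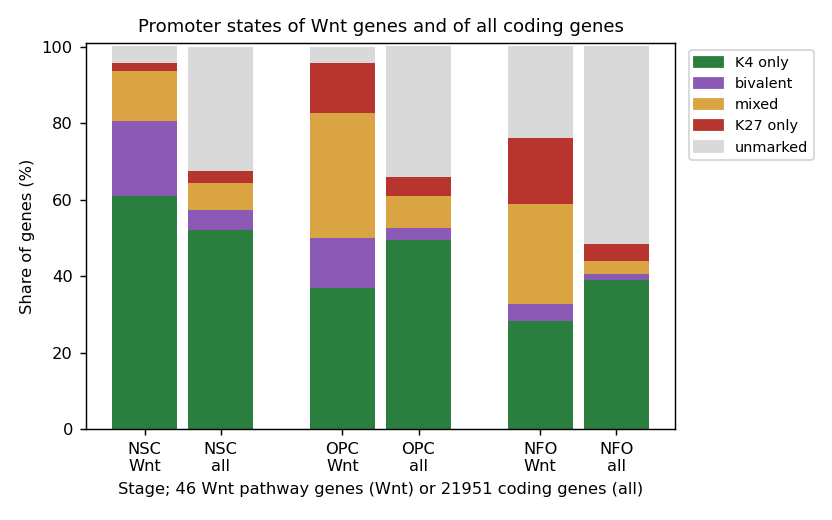
Share of genes (y axis, percent) in each of the 5 promoter states, for the 46 Wnt pathway genes and for all 21951 coding genes at each stage (x axis). The Wnt bars hold more of the 3 states with H3K27me3 (bivalent, mixed and K27 only) than the coding gene bars at each stage, and the K4 only share of Wnt genes is 60.9% in NSCs, 37% in OPCs and 28.3% in NFOs.

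From NSCs to OPCs, 24 Wnt genes changed state (background 23.3%), and from OPCs to NFOs, 20 did (background 28.2%). The OPC libraries enter both of these comparisons. H3K27me3 was absent in NSCs and listed in OPCs at 15 Wnt genes (background 9.17%), and the reverse held for 3, Lrp6, Ctnnb1 and Znrf3 (background 7.89%). H3K4me3 was listed in NSCs and not in NFOs at 16, or 34.8%, of the Wnt genes (background 22%). Only genes with a mark in NSCs can lose it, and the Wnt genes had both marks more often there. H3K4me3 was listed in NSCs at 43 Wnt genes and 14114 coding genes, of which 16 and 4824 had none in NFOs. H3K27me3 was listed in NSCs at 15 Wnt genes and 3312 coding genes, of which 3 and 1733 had none in OPCs. By role, 7 of 19 ligands and 6 of 10 Frizzled genes gained H3K27me3 in OPCs, against 0 of 4 genes of beta-catenin and its destruction complex.

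**Figure D2:**
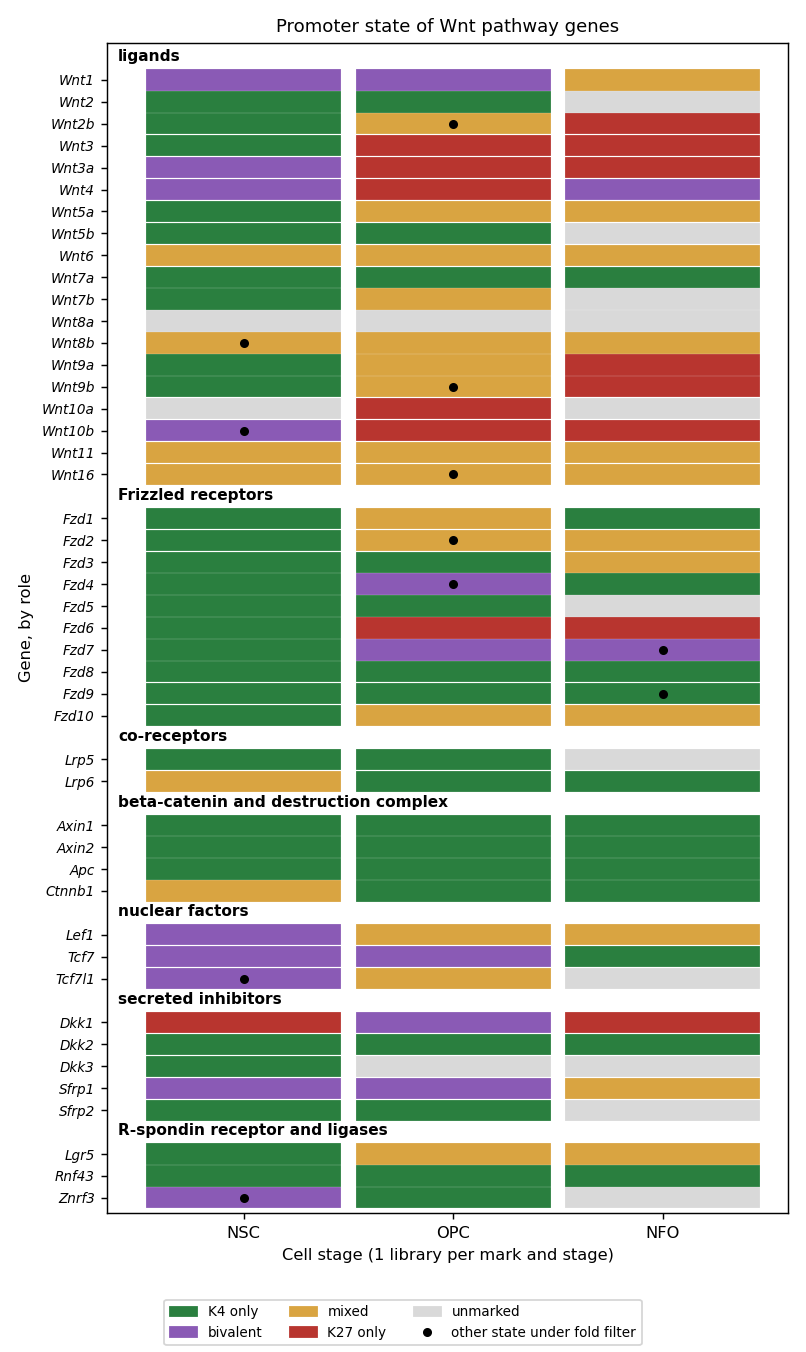
Promoter state of each of the 46 genes (rows, grouped by role) at the 3 stages (columns), with a black point where the state differs if only peaks with a fold enrichment above 3.5 and a false discovery rate (FDR) below 0.05 are used. The ligands hold most of the K27 only tiles, all 10 Frizzled genes are K4 only in NSCs, and 3 of the 4 genes of the destruction complex group stay K4 only.

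Among the 19 ligands, H3K27me3 was listed at 8 (NSCs), 15 (OPCs) and 13 (NFOs), and H3K4me3 at 17, 13 and 8. At 8 ligands H3K27me3 was listed at all 3 stages (4.49% of all coding genes), and over all Wnt genes this held for 11. Only Wnt7a was K4 only throughout among the ligands. Wnt8a, an early embryonic ligand, had no listed peak of either mark at any stage.

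The ligands that went from K4 only in NSCs to K27 only in NFOs were Wnt2b, Wnt3, Wnt9a and Wnt9b, and the receptor Fzd6 took the same path, which makes 5 Wnt genes (background 1.88%). All 5 kept these end states when only peaks above the study's cutoffs were used, 1 did with H3K27me3 peaks of at least 1 kb only, and 0 did with a fold enrichment above 5. Wnt3, a ligand of the beta-catenin branch known from early axis formation, had an H3K4me3 peak of 1177 bp and fold enrichment 4.01 in NSCs and none in OPCs or NFOs. Its widest H3K27me3 peak was 2535 bp in OPCs (fold enrichment 3.72) and 2572 bp in NFOs (4.03), and none was listed in NSCs.

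Wnt9b, a ligand known from kidney tubule formation, had H3K4me3 peaks of 854 bp in NSCs and 250 bp in OPCs and none in NFOs. H3K27me3 covered 0, 496 and 1098 bp of the 4 kb window around its gene start in NSCs, OPCs and NFOs. The OPC peak of H3K27me3 had a fold enrichment of 3.33, under the cutoff of 3.5, so that Wnt9b was K4 only in OPCs by the stricter reading. The 250 bases before its RefSeq start (GRCm38) hold 22 CpG dinucleotides, the sequence context that both marks usually favour, and are shown with those of Axin2, a K4 only promoter at all stages with 24, and of Dkk2, which was also K4 only throughout and holds 7. Capitals mark CpG, and each runs 5' to 3' on the gene's own strand.
Wnt9b, chr11:103749822-103750071, minus strand: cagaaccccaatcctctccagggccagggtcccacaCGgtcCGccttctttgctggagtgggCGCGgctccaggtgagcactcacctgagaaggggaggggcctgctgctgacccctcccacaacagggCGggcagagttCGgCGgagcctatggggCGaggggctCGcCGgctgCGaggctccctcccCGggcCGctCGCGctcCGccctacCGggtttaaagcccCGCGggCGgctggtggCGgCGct
Axin2, chr11:108920099-108920348, plus strand: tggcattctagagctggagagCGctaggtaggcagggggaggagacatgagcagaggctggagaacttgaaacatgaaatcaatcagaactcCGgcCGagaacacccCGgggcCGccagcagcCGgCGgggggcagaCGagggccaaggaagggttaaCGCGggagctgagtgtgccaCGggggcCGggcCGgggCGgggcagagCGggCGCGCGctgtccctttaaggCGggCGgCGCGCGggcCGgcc
Dkk2, chr3:132085042-132085291, plus strand: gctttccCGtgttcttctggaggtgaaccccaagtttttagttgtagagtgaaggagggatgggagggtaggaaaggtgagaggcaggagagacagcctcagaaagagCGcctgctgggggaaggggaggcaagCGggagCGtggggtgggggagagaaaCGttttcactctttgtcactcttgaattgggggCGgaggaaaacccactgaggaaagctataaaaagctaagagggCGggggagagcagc

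Wnt2b, a ligand active in the dorsal midline of the brain and in the eye margin, had an H3K4me3 peak of 745 bp in NSCs and 808 bp in OPCs and none in NFOs. H3K27me3 was listed at 869 bp in OPCs (fold enrichment 3.47) and 831 bp in NFOs (fold enrichment 3.67). Wnt9a, a ligand of joint formation, had H3K4me3 peaks of 1309 bp in NSCs and 484 bp in OPCs and none in NFOs. Its widest H3K27me3 peak spanned 1755 bp (OPCs) and 984 bp (NFOs). At both genes peaks of the 2 marks were listed in OPCs, with an overlap at Wnt9a and none at Wnt2b. By the stricter reading Wnt2b was K4 only there. At Wnt3 and Fzd6 only H3K27me3 was listed in OPCs.

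The remaining ligands with H3K27me3 in NSCs already carried both marks there. Wnt1, a ligand of the midbrain and hindbrain border, had an H3K27me3 peak over its gene of 4186, 4835 and 5300 bp across the 3 stages. The H3K4me3 peak inside it was 1481 bp, 209 bp and 255 bp wide. Wnt3a and Wnt10b were bivalent in NSCs and K27 only afterwards. Wnt3a, which acts in the growth of the hippocampus and the tail bud, had H3K4me3 over 883 bp in NSCs with a fold enrichment of 4.38. Wnt10b had it over 1156 bp with a fold enrichment of 3.39, under the cutoff, so that by the stricter reading Wnt10b was K27 only at all 3 stages.

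Wnt4, a ligand of kidney and gonad formation, was bivalent in NSCs, K27 only in OPCs and bivalent in NFOs. Its H3K27me3 peak was 312 bp wide in NSCs, 241 bp in OPCs with a fold enrichment of 12.4, and 1018 bp in NFOs with 6.98. The NSC and OPC peaks lie in the gene, under 2 kb from its start, where an OLIG2 peak of OPCs also lies. Wnt6, Wnt8b, Wnt11 and Wnt16 were mixed at all 3 stages. By the stricter reading Wnt8b was bivalent in NSCs and Wnt16 was bivalent in OPCs. Wnt11, a ligand mostly of the beta-catenin-independent branch, had the highest H3K27me3 fold enrichment of all Wnt genes in OPCs, 20.9, in a peak of 280 bp.

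Wnt5a, the main ligand of the planar polarity branch, had an H3K4me3 peak of 8186, 2480 and 190 bp across the 3 stages, and gained H3K27me3 peaks at alternative starts that reached 638 bp (OPCs) and 1267 bp (NFOs). Wnt7b, an endothelial-directed neural ligand, had an H3K4me3 peak of 8116 bp in NSCs and 1584 bp in OPCs, an H3K27me3 peak of 724 bp in OPCs, and nothing listed in NFOs. Wnt7a, which acts with Wnt7b on brain vessels and is made by OPCs, had H3K4me3 over 2615, 2269 and 996 bp. Its NFO peak was the widest H3K4me3 peak of any ligand at that stage. Wnt2 and Wnt5b were K4 only in NSCs and OPCs and unmarked in NFOs, and Wnt10a was K27 only in OPCs and unmarked at the other stages.

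**Figure D3:**
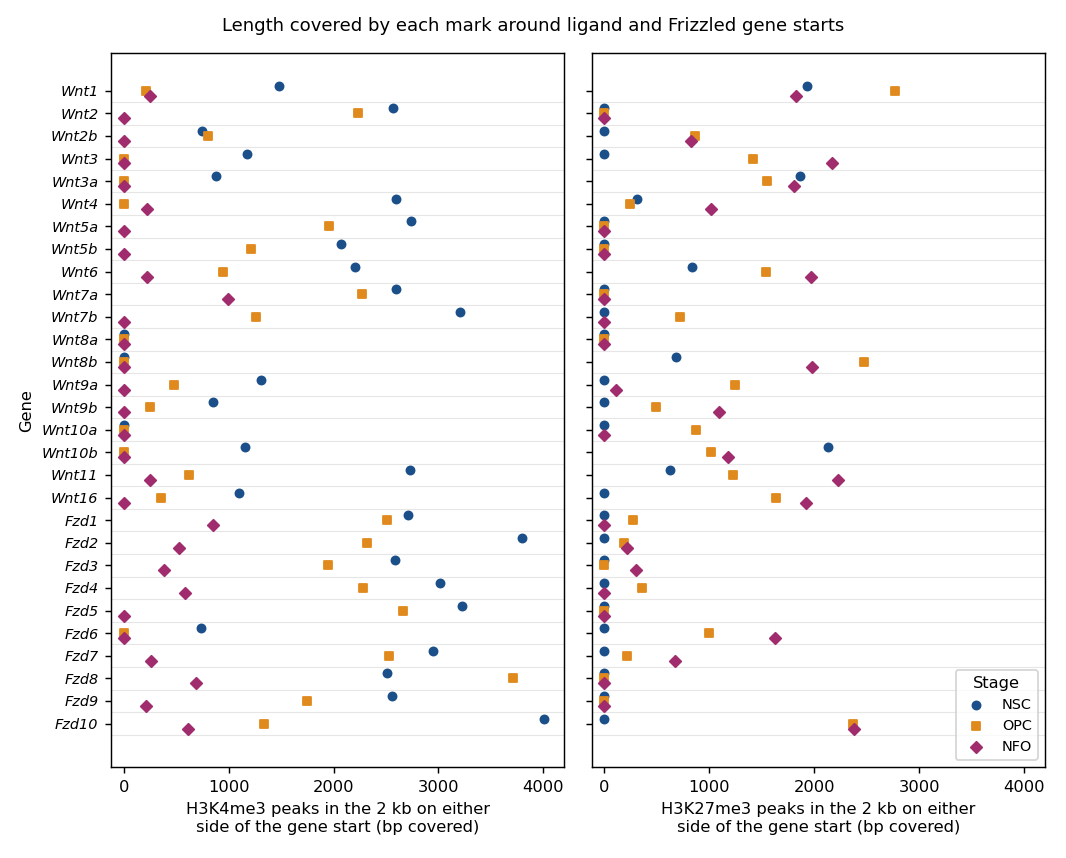
Bases covered by listed H3K4me3 peaks (left) and H3K27me3 peaks (right) in the 2 kb on either side of the gene start for the 19 ligands and 10 Frizzled genes (rows), with 1 point per stage. H3K4me3 cover is mostly largest in NSCs and smallest in NFOs, and H3K27me3 cover is 0 in NSCs for all 10 Frizzled genes; peaks near an alternative start only do not count here.

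In the 4 kb around the gene start, the median H3K4me3 cover of the 19 ligands was 1309, 356 and 0 bp across the 3 stages, and that of the 10 Frizzled genes was 2828, 2300 and 458.5 bp. Over all coding genes the medians were 1234, 632 and 0 bp. H3K4me3 cover was lower in OPCs than in NSCs and lower again in NFOs for 30 of 46 Wnt genes and for 10819 of 21951 coding genes. H3K27me3 moved otherwise. Its median cover over the 46 Wnt genes was 0, 208.5 and 0 bp in stage order, while the coding gene median stayed at 0 bp. Mean cover by H3K27me3 was 380.2, 694.6 and 666.2 bp for Wnt genes, against 108.6, 136.4 and 99.4 bp for coding genes. The mark covered part of this window at only 13, 25 and 21 of the 46 Wnt genes, so the means do not describe a typical gene.

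Ligand genes lie in neighbouring pairs at 4 places of the mouse genome, and the marks were read over each pair and 5 kb on either side. In 3 of the pairs the genes run away from each other, and in the other they follow each other on 1 strand. At Wnt9b and Wnt3 (chr11:103727364-103817957), with 24328 bp between the genes, 0 H3K27me3 peaks were listed in NSCs and 6 at each later stage, while H3K4me3 peaks numbered 3, 2 and 0. H3K27me3 covered 4.93% of the stretch in OPCs and 5.83% in NFOs. At Wnt3a and Wnt9a (chr11:59248033-59333552) H3K27me3 covered 4.98%, 8.31% and 2.92% at the 3 stages.

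Wnt10b and Wnt1 (chr15:98770712-98793837) had the largest covered share, 27.2% in NSCs, 34.3% in OPCs and 30.9% in NFOs. At Wnt6 and Wnt10a (chr1:74771892-74804179), which run in the same direction, it was 9.9%, 12.6% and 12%. The 4 pairs therefore differed in when H3K27me3 was first listed: only the Wnt9b and Wnt3 pair had none in NSCs. No single peak of either mark covered the starts of both genes of a pair at any stage.

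**Figure D4:**
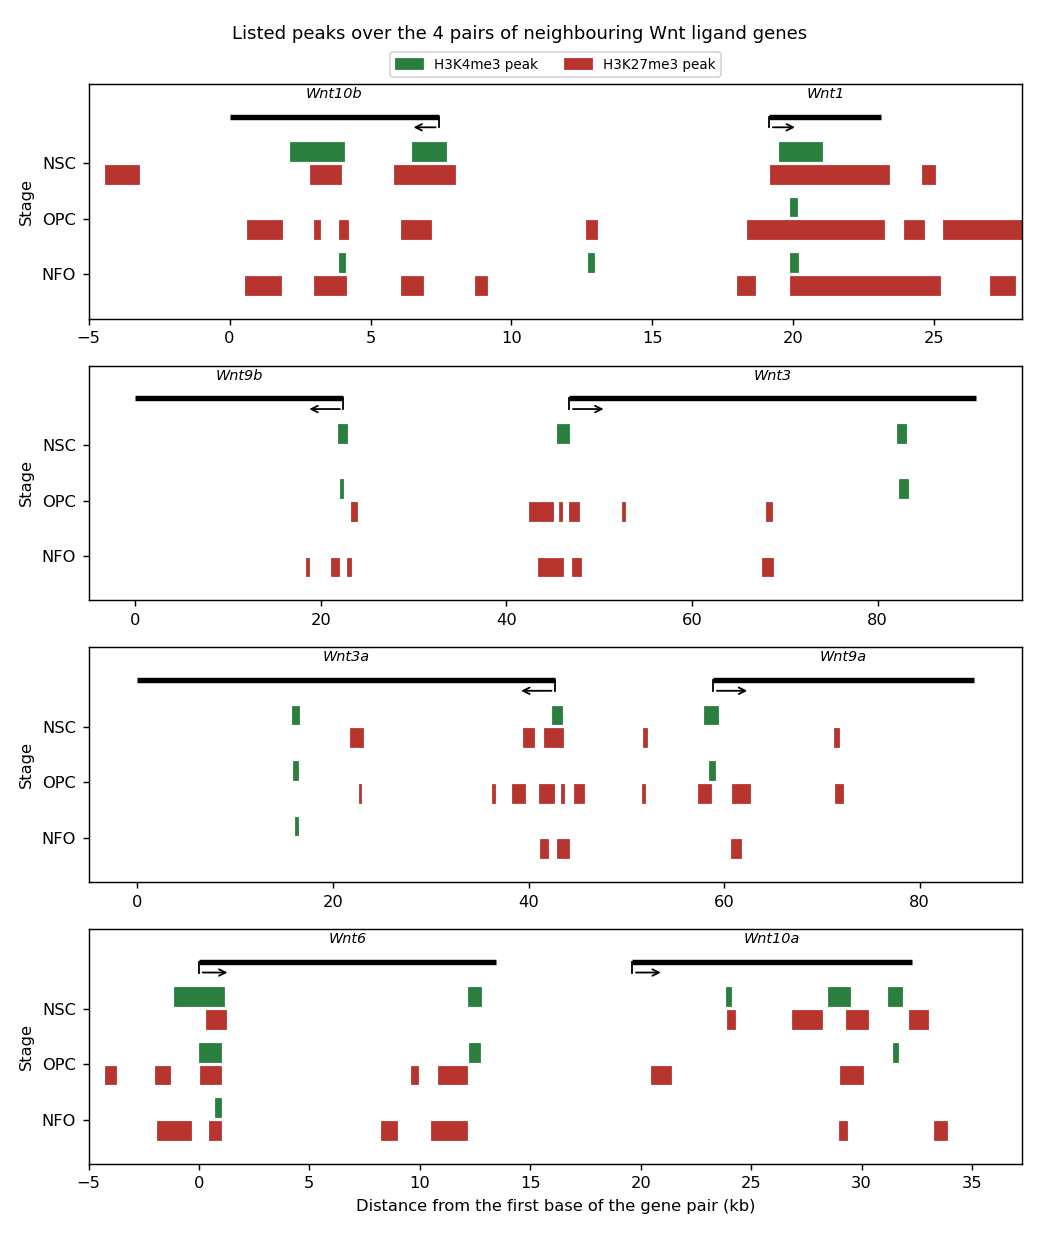
Listed H3K4me3 (green) and H3K27me3 (red) peaks over the 4 pairs of neighbouring ligand genes at the 3 stages (rows), with distance from the first base of the pair in kb on the x axis; black bars are genes and arrows their starts. The Wnt9b and Wnt3 pair has no red bar in NSCs and no green bar in NFOs, and the other pairs have red bars at all stages.

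The Frizzled genes encode the membrane receptors of Wnt ligands. All 10 were K4 only in NSCs, and the widest H3K4me3 peak of each was between 739 bp (Fzd6) and 5878 bp (Fzd10). In OPCs 6 of them had an H3K27me3 peak, and in NFOs 5 did. Fzd6, a receptor of planar polarity, lost its H3K4me3 peak in OPCs, and its H3K27me3 peaks covered 994 bp around the start in OPCs and 1629 bp in NFOs.

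Fzd10 had the broadest H3K27me3 among the receptors, covering 2370 bp (OPCs) and 2377 bp (NFOs), beside H3K4me3 peaks of 1333 and 610 bp. The NFO H3K4me3 peak of Fzd10 had a fold enrichment of 29.5, the highest of any Wnt gene in that library. It ends at position 128600786 of chromosome 5, and an H3K27me3 peak of NFOs ends at 128600785. The H3K27me3 peaks of Fzd1, Fzd2, Fzd4 and Fzd7 in OPCs were all narrow, at 274, 186, 359 and 213 bp. Those of Fzd2 and Fzd4 had fold enrichments of 3.04 and 3.22 and did not pass the cutoff of 3.5, which leaves 4 Frizzled genes with H3K27me3 in OPCs by the stricter reading. Fzd5, Fzd8 and Fzd9 had no H3K27me3 peak at any stage, and Fzd3 had 1 of 357 bp in NFOs only. By the stricter reading Fzd7 was K4 only and Fzd9 unmarked in NFOs. A TSS of Tmem135 lies within 2 kb of that of Fzd4.

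Overlapping peaks of the 2 marks had a common edge more often in the OPC and NFO lists than in the NSC lists. At Fzd7 in OPCs the H3K4me3 and the H3K27me3 peak both start at position 59481376 of chromosome 1, and the NFO H3K4me3 peak starts 1 base before. Of all overlaps between an H3K27me3 and an H3K4me3 peak, 4.44% in NSCs, 29% in OPCs and 42.5% in NFOs had starts or ends within 5 bp of each other. Near Wnt genes this was so for 0 of 15, 3 of 17 and 5 of 13 overlaps, at Wnt6, Fzd7 and Tcf7 in OPCs and at Wnt1, Wnt4, Wnt6, Fzd10 and Sfrp1 in NFOs. The part of such common edges in the bivalent and mixed calls was not tested.

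The genes of beta-catenin and its destruction complex had H3K4me3 at every stage, and of these and the co-receptors only Ctnnb1 and Lrp6 had H3K27me3 at any stage. Axin1 and Axin2, scaffolds of the complex that destroys beta-catenin, and Apc, its tumour suppressor subunit, were K4 only at all 3 stages, as were 8 of 46 Wnt genes in all (29.9% of coding genes). Axin2, itself a target of the pathway, had H3K4me3 peaks of 4933, 3079 and 556 bp across the 3 stages. The Ctnnb1 gene, which encodes beta-catenin, had 2 H3K27me3 peaks in NSCs, the wider 828 bp, beside an H3K4me3 peak of 3039 bp, and H3K4me3 alone afterwards. A TSS of Ulk4 lies within 2 kb of a Ctnnb1 TSS, so these peaks cannot be assigned to 1 of the 2 genes.

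Lrp6 had a 277 bp H3K27me3 peak at an alternative start in NSCs only, and Lrp5 lost its listed H3K4me3 peak in NFOs. Both co-receptors are the targets of the DKK inhibitors. At the main start of Lrp6, H3K4me3 peaks were 2970, 2473 and 715 bp wide in stage order. No co-receptor had H3K27me3 around its gene start at any stage.

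The nuclear factors Lef1, Tcf7 and Tcf7l1, DNA-binding partners of beta-catenin, were all bivalent in NSCs by the rule used here. Lef1 had the widest H3K27me3 peak of any Wnt gene, 12706 bp in NSCs, and later 5772 bp (OPCs) and 7264 bp (NFOs), with an H3K4me3 peak of 2324, 2212 and 914 bp inside or beside it. Tcf7 had H3K27me3 of 305 bp in NSCs and 204 bp in OPCs and none in NFOs, where it was K4 only. Tcf7l1, mostly a repressor of the pathway's targets, was bivalent in NSCs only because its 3604 bp H3K4me3 peak met an H3K27me3 peak beyond the 2 kb limit, and it was unmarked in NFOs. By the stricter reading it was K4 only in NSCs.

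Among the secreted inhibitors, Dkk1, a blocker of LRP5 and LRP6, was the only Wnt gene that was K27 only in NSCs. Its H3K27me3 peak was 1920, 4412 and 3336 bp across the 3 stages, and an H3K4me3 peak of 1015 bp was listed in OPCs alone. Sfrp1, which binds Wnt ligands outside the cell, carried both marks throughout, with H3K27me3 peaks of up to 1523, 1080 and 999 bp. Dkk2 was K4 only throughout. Sfrp2 was K4 only in NSCs and OPCs and unmarked in NFOs, and Dkk3, a divergent family member, had H3K4me3 in NSCs alone.

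In the R-spondin branch, Lgr5, a stem cell marker and R-spondin receptor, had H3K4me3 of 2485 bp in NSCs and 2562 bp in OPCs. It had 3 H3K27me3 peaks in OPCs, the widest 2917 bp, 2 in NFOs and none in NSCs. Rnf43 and Znrf3 are membrane ligases that remove Frizzled receptors from the cell surface. Rnf43 was K4 only throughout, and Znrf3 had an H3K27me3 peak of 850 bp and fold enrichment 2.93 in NSCs only, which the stricter reading drops.

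The 250 bases before and 50 after the start could be taken from RefSeq for 30 of the 46 genes. Their GC content had a median of 71.5% and they held a median of 31 CpG, against 57% and 14 over 16521 coding genes. The 21 promoters with H3K27me3 at any stage held a median of 31 CpG, with a range of 6 to 58, and the 9 without held a median of 31, with a range of 10 to 53, so the ranges overlapped. The letters CTTTGAT or CTTTGAA, the core that TCF and LEF factors recognise, occurred on either strand in 2 of the 30 promoters, those of Wnt11 and Dkk1, and in 7.67% of all promoters of that length. No match means only that these letters are not in this window.

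OLIG2 peaks were listed in or up to 5 kb before 10 Wnt genes in OPCs (background 16.5%) and 18 in NFOs (background 28.2%), and 6 genes had one at both stages (background 9.79%). Together 22 of 46 genes had at least 1 peak (background 34.9%). With a fold enrichment above 5 the counts were 10 (14.9% of coding genes) and 16 (25%), and above 10 they were 4 (6.42%) and 10 (12.6%). The NFO list reached an FDR of 0.52 and the OPC list 0.00024, so the 2 lists were not cut at the same level. Gene length went with these counts: the 22 genes with a peak had a median length of 52253 bp and the 24 without 11480 bp, while coding genes as a whole had 17403 bp and those with a peak 44639 bp. Its part in the counts was not tested.

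By role, OLIG2 peaks of either stage were found at 7 of 19 ligands, 2 of 10 Frizzled genes, 2 of 2 co-receptors, 3 of 4 genes of the destruction complex group, 3 of 3 nuclear factors, 2 of 5 inhibitors and 3 of 3 R-spondin branch genes. Gene length also differs between roles. Lrp5 and Lrp6 span 101737 and 120490 bp, and the Frizzled genes from 2293 bp (Fzd9) to 70015 bp (Fzd3). The part of length in the counts by role was not tested. The peaks numbered 11 in OPCs and 29 in NFOs. Of these 40, 31 had their middle in an intron and 6 within 1 kb of a TSS of the gene. Among those 6, the NFO peaks of Axin2, Sfrp1 and Rnf43 were under the cutoff of 5. Their fold enrichment ran from 5.37 to 33.3 in OPCs, with a median of 9.22, and from 3.1 to 19.1 in NFOs, with a median of 9.2. The medians over all OLIG2 peaks were 8.03 and 8.12.

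**Figure D5:**
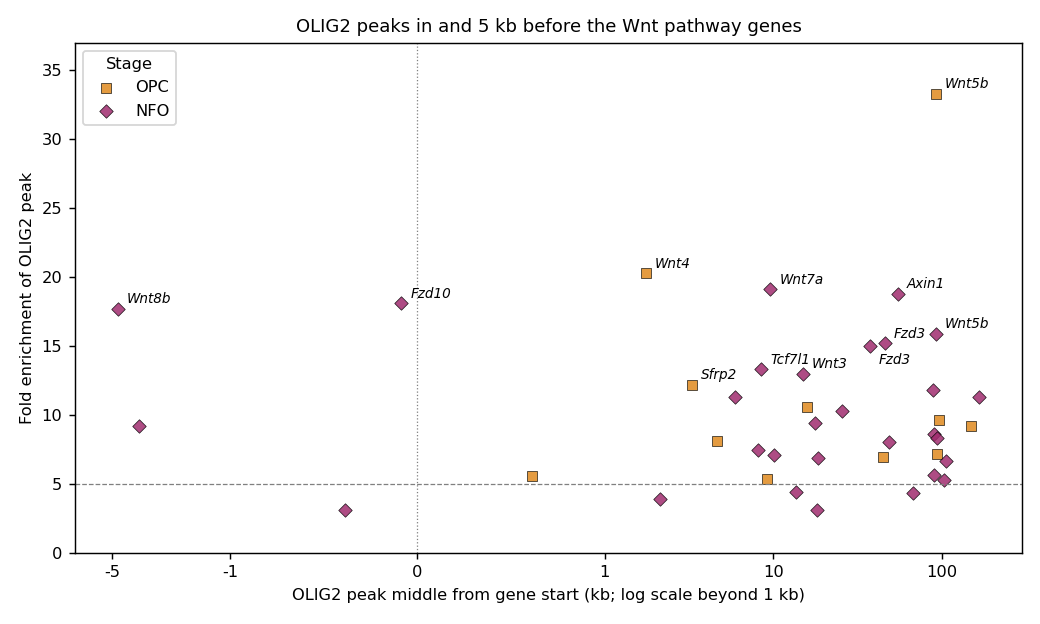
Fold enrichment (y axis) of each OLIG2 peak in OPCs (squares) and NFOs (diamonds) against the distance of its middle from the gene start in kb (x axis, log scale beyond 1 kb, negative before the gene); the dashed line is a fold enrichment of 5 and peaks above 12 are named. The OPC peak of Wnt5b stands highest at 33.3, and most peaks lie well inside the genes.

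The highest OLIG2 peak of the set was in Wnt5b, a ligand of the beta-catenin-independent branch. It had a fold enrichment of 33.3 in OPCs, and a peak at the same place had 15.9 in NFOs, where the 2 middles were 8 bp apart. The site is in an intron 92551 bp into the gene and 2410 bp before the nearest alternative start. It lay under an H3K4me3 peak at each stage, of 857, 790 and 197 bp across the 3 stages, and under no H3K27me3 peak. Lgr5 was the only other gene with an OLIG2 peak at the same place at both stages, in an intron, with fold enrichments of 7.17 in OPCs and 8.33 in NFOs. In OPCs an H3K4me3 peak of 213 bp and an H3K27me3 peak of 241 bp lay on that site.

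The 121 bases around the middle of the OLIG2 peaks at the 2 places bound in both stages are shown first, and then the Wnt4 and Wnt8b peaks, which hold an E-box, the letters that basic helix-loop-helix factors recognise. They are written on the plus strand of GRCm38, with CAGCTG (its own reverse complement), CATCTG or CAGATG and the TCF letters in capitals. The first 2 hold none of these letters in the bases shown, but the 200 bp around the middle of the Lgr5 OPC peak hold the TCF letters.
Wnt5b, OPC peak, chr6:119451736-119451856: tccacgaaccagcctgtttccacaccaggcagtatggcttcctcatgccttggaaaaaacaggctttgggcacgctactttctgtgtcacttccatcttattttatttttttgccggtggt
Lgr5, OPC peak, chr10:115493907-115494027: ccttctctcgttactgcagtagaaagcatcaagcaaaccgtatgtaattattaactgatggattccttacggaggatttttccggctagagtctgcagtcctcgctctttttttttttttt
Wnt4, OPC peak, chr4:137279192-137279312: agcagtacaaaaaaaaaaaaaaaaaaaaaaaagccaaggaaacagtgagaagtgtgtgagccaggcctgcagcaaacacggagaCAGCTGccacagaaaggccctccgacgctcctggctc
Wnt8b, NFO peak, chr19:44488807-44488927: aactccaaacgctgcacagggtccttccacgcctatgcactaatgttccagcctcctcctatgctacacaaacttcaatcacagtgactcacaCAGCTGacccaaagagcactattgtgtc

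In the 200 bp around the peak middle, CAGCTG occurred in 2 of 11 Wnt gene peaks in OPCs and 5 of 29 in NFOs, against 12.2% and 8.82% of all OLIG2 peaks. CATCTG or CAGATG occurred in 0 of the 40, against 17.2% and 15%. The TCF letters were found in 1 of 11 and 3 of 29, against 7.45% and 7.97%. A run of at least 15 A or T was found in 6 of 11 and 11 of 29 of the Wnt gene windows and in 49.1% and 44.8% of all windows. The Wnt4 and Lgr5 windows and that of the NFO peak of Fzd10 each hold such a run. The part of these runs in the peak calls was not tested.

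Wnt4 had its OLIG2 peak in OPCs only, with a fold enrichment of 20.3, in an intron 1763 bp from the start. It lay on the 241 bp H3K27me3 peak described above, and at that place NSCs and NFOs had listed peaks of both marks. Fzd10 had an OLIG2 peak in NFOs 86 bp before its start with a fold enrichment of 18.1, and it was the only ligand or Frizzled gene with a peak within 1 kb of a start. This OLIG2 peak lay on both H3K4me3 and H3K27me3 peaks of NFOs, which end where a run of T starts in its window. In OPCs no OLIG2 peak was listed at any Frizzled gene.

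Other ligand peaks were in NFOs in introns of Wnt7a (fold enrichment 19.1), Wnt3 (13 and 11.3), Wnt2 (6.86) and, at another place than above, Wnt5b (6.68), 4605 bp before Wnt8b (17.7), and in OPCs in an intron of Wnt2b (5.37). Fzd3 had 2 NFO peaks in introns, of 15.2 and 15. Of the co-receptors, Lrp5 had an OPC peak of 6.92, and Lrp6 had 1 of 9.65 in OPCs and 1 of 7.48 in NFOs at different places. Axin1, Axin2 and Apc had peaks in NFOs only. The highest was 18.8 in Axin1, nearer to the start of Pdia2 than to one of its own, and the Axin2 peak had a fold enrichment of 3.93, under the cutoff of 5.

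All 3 nuclear factors had OLIG2 peaks in NFOs, and Tcf7 and Tcf7l1 also in OPCs, at other places than in NFOs. Tcf7 had OPC peaks of 10.6 in the gene and 5.6 at 612 bp from its start, the latter on peaks of both marks, and an NFO peak of 9.2 at 3461 bp before the start. Lef1 had NFO peaks of 11.8 and 10.3, both on an H3K27me3 peak of OPCs and the second also on one of NFOs. The first was nearer to the start of Hadh (72300 bp) than to a start of Lef1 (85868 bp). Sfrp2 had an OPC peak of 12.2, Sfrp1 NFO peaks of 7.11 and 3.1, and Rnf43 an OPC peak of 8.1 and an NFO peak of 4.31. Znrf3 had 3 NFO peaks from 5.62 to 11.3. Its peak of 11.3 was in an exon, nearer to the start of Kremen1 (16091 bp) than to a start of Znrf3 (104091 bp).

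Over all of these peaks, 4 of 11 in OPCs and 5 of 29 in NFOs lay on an H3K4me3 peak of the same stage, against 12.6% and 8.23% of all OLIG2 peaks. On an H3K27me3 peak lay 3 of 11 and 3 of 29, against 10.5% and 2.44%. In NFOs the Axin2 peak counted on H3K4me3 and the Sfrp1 peak counted on both marks were under the cutoff of 5. Neither mark was listed under 6 of 11 and 23 of 29. With so few peaks these shares describe the set and no more.

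The same rules were applied to 60 other genes of the pathway. H3K27me3 was listed at 16 of them in NSCs (background 15.1%), 25 in OPCs (background 16.4%) and 21 in NFOs (background 9.56%). By the stricter reading these counts were 10, 21 and 15. The backgrounds just given are for all listed peaks and do not apply to these stricter counts, which have none here. Of the 60 genes, 24 changed state from NSCs to OPCs (background 23.3%) and 25 from OPCs to NFOs (background 28.2%). The path from K4 only in NSCs to K27 only in NFOs was taken by 5 (background 1.88%). They were Kremen1, a DKK receptor, Daam2, a formin of the pathway, and the 3 planar polarity cadherins Celsr1, Celsr2 and Celsr3. By the stricter reading Kremen1 was unmarked in NFOs. Wif1, a secreted Wnt inhibitor, was bivalent at all 3 stages, and Sfrp5 was K27 only at all 3. Dvl1 and Dvl2, which relay the signal from the receptor, were K4 only throughout.

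OLIG2 peaks were listed at 19 of the 60 genes in OPCs (background 16.5%) and 22 in NFOs (background 28.2%), and at 9 in both (background 9.79%). Tcf7l2, the TCF factor best known from the oligodendrocyte lineage, had 2 OPC peaks of up to 12.5 and 3 NFO peaks of up to 11.4. It was K4 only in NSCs and mixed in OPCs and NFOs, and by the stricter reading it was K4 only in NFOs. Prickle1, a planar polarity gene, had 8 NFO peaks, the most of this list, of up to 15.8.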

How the data were processed

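The 13 libraries gave 8 ChIP-Seq peak lists and 2 RIP-Seq tables, and 3 were input DNA. The authors mapped reads to mm10 (GRCm38) with Bowtie2, called broad histone peaks with MACS2 and OLIG2 peaks with SPP, and removed blacklisted regions. The deposited lists give each peak's fold enrichment over input (a ratio; for OLIG2 the caller's signal value, taken as fold enrichment). The −log10 q-values in the deposited lists were made by the authors' peak callers. The deposited RIP-Seq tables give tag counts and p-values per site, which the authors called with ASPeak at default settings, with NSC RNA-Seq as the expression input and the IgG library as control. Each condition has 1 library and depth is unknown, so no test, interval or SD is given.

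All listed peaks were used with GENCODE M21 (Python 3.11.15, pandas, pysam). The named genes are all 46 members by role, chosen with earlier results of these data known, as were the 60 other pathway genes and the marker lists. State calls were tested on simulated peaks. Peaks with FDR below 0.05 and fold enrichment above 3.5 (histone) or 5 (OLIG2), the study's cutoffs, other distances, widths and overlaps were tried as alternatives. RefSeq promoter sequences matched 30 members. OLIG2 in NSCs was not analysed here.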

Additional observations from a re-analysis of the deposited data

How the results depend on the processing

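Of 88 alternative values for 15 counts, 58 stayed within 1.5 times the value reported. With a histone fold enrichment above 5, H3K4me3 was listed at 25 genes in OPCs and 17 in NFOs, H3K27me3 at 7, 13 and 8 genes in NSCs, OPCs and NFOs, bivalent genes numbered 5 in NSCs and 5 in NFOs, 0 genes went from K4 only to K27 only, and 3 ligands had H3K27me3 at all stages. With H3K27me3 peaks of at least 1 kb only, H3K27me3 was listed at 7, 14 and 13 genes, bivalent genes were 5 in NSCs and 4 in NFOs, 13 genes changed state from NSCs to OPCs, 1 went from K4 only to K27 only and 3 ligands had H3K27me3 throughout. With a limit of 1 kb from a TSS there were 10 bivalent genes in OPCs and 5 ligands with H3K27me3 throughout. Counting any overlap of the marks gave 14 bivalent genes in OPCs and 11 in NFOs; the cutoff of 3.5 and an overlap of 200 bp each gave 1 in NFOs. With H3K4me3 peaks of at least 500 bp, H3K4me3 was listed at 11 genes in NFOs, 0 genes were bivalent there and 8 went from K4 only to K27 only. The last setting, and the counts of genes going from K4 only to K27 only and of ligands with H3K27me3 throughout, were chosen after seeing the data. OLIG2 peaks above a fold enrichment of 10 lay at 4 genes in OPCs and 10 in NFOs, and those in the 5 kb before the gene alone at 0 and 4. These alternatives use fewer or differently joined peaks by construction; no other cause was tested. No paired analysis was possible because each condition has 1 library and the labels give no replicate numbers. Unknown depth limits every statement that a peak is not listed.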

Other observations

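In the RNA immunoprecipitation (RIP-Seq) tables, in which RNA bound to OLIG2 was compared with a control antibody, Wnt3 was the only one of the 46 genes with listed sites. It had 9 sites with 40 tags in all and at most 6 per site in the OLIG2 library, and 2 sites with 14 tags in all and at most 9 per site in the control library. The transcript's level in these tables was 0.0275 RPKM (reads scaled to transcript length and library size). The samples are labelled as NFOs while the study's methods describe NSCs, so the cell type of these values is uncertain. With 1 library each, no test was made.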
